A study of Mus musculus with 14 samples.

Results

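The genes described here encode, in the nucleus, the subunits of the mitochondrial respiratory chain and of ATP synthase, together with several factors that assemble them. They were taken from an Affymetrix array as all probe sets whose single gene symbol starts with Nduf, Uqcr or Atp5, starts with Cox4, Cox5, Cox6, Cox7 or Cox8, or is Sdha, Sdhb, Sdhc or Sdhd. This rule found 156 probe sets for 84 genes, among the 12393 genes that have a probe set with 1 symbol. Where a gene had several, the one with the highest mean over 14 arrays stood for it. By symbol, 39 genes belong to complex I, 4 to complex II, 8 to complex III, 16 to complex IV and 17 to complex V. A further 8 probe sets carry a member's symbol together with another symbol and were left out.

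The respiratory chain passes electrons from NADH (complex I) and succinate (complex II) through ubiquinone to complex III, and by cytochrome c to complex IV, which reduces oxygen. Complexes I, III and IV pump protons across the inner mitochondrial membrane, and complex V, ATP synthase, uses their return to make ATP. The striatum depends heavily on oxidative phosphorylation, and inhibitors of complex II are a classical way of producing striatal lesions in animals. Most subunits are encoded in the nucleus, and the mitochondrial genome encodes the remaining ones, which the rule does not take.

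RNA came from tissue labelled as striatum of 6-week-old R6/2 and wild-type mice on a CBAxC57BL/6 background. R6/2 animals bear a transgene made of the first exon of human HTT with a long CAG repeat under the human HTT promoter, and are a model of Huntington disease. Both genotypes served as saline-treated controls in 2 drug studies, with saline given 30 to 60 minutes before they were killed. Cohorts were read from the beginning of the sample titles, a prefix the labels do not define: M.C holds replicates 1 to 4 of each genotype and Mith replicates 5 to 7 of each. Whether every array came from a different animal is not in the labels, so the p-values measure only the spread between arrays, and the number of arrays limits the precision.

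Values are log2 probe set signals, whose array medians ran from 7.07 to 7.17 as deposited and were set to a common value. Of the markers of striatal projection neurons, Ppp1r1b lay between 9.45 and 11.04 and Penk between 10.6 and 12.2 over the 14 arrays. The 2 of 4 cortical markers with a probe set of their own, Tbr1 and Neurod6, lay between 3.44 and 4.27, and the choroid plexus gene Ttr between 8.43 and 13.4. Probe affinity sets such levels, so they describe each gene and do not rank the genes. R6/2 replicate 4 stood apart in the genes of this report, being the lowest of 14 arrays for 59 of the 84 genes. Among the other arrays, R6/2 replicate 7 was the highest for 33 genes, R6/2 replicate 5 for 20 and wild-type replicate 5 for 12. The main counts are given with and without R6/2 replicate 4 and wild-type replicate 5. These 2 arrays were picked from the values of these same genes, a low R6/2 array and a high wild-type array. Leaving out either one raises the median R6/2 minus wild-type difference over both cohorts, so calls gained that way are no separate evidence of a rise.

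In R6/2 striatum 2 of the 84 genes rose and none fell, in a fit with limma over both cohorts with cohort as a term (adjusted p under 0.05, Benjamini-Hochberg over 22626 probe sets). The 2 genes were Atp5g1, which encodes the c subunit of the ATP synthase rotor ring, and Cox7c, a small subunit of complex IV. Over all 12393 genes 0.476% rose and 2.04% fell in the same fit. At an unadjusted p under 0.05, 10 of the 84 genes were higher and 0 were lower, against 6.25% higher and 8.69% lower of all genes. In bulk tissue, fewer cells of a type and less RNA per cell cannot be told apart.

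Most members sat slightly above their wild-type level without passing the test. The R6/2 minus wild-type difference was above 0 for 71 of 84 members, with a median of 0.09 on the log2 scale. Over all genes, 56.6% of differences were above 0 and the median was 0.01. The members ranged from -0.13 for Ndufa10 to 0.35 for Uqcrb. Within genotype and cohort, the mean of the 84 members varied between arrays with an SD of 0.146. After quantile normalization 77 of 84 members were above 0, with a median of 0.14.

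This shift differed between the cohorts and moved with single arrays. In M.C the difference was above 0 for 41 of 84 members, with a median of -0.01. In Mith it was above 0 for 75 of 84, with a median of 0.21. Without R6/2 replicate 4 the M.C median was 0.08 with 71 of 84 members above 0, and the median over both cohorts was 0.16. Without wild-type replicate 6 the median over both cohorts was 0.03, the lowest value with an array left out. Without wild-type replicate 6 the Mith median was 0.13. Without wild-type replicate 5 the Mith median was 0.32 and that over both cohorts 0.12, and 4 members rose: Atp5g1, Cox7c, Uqcrb and Atp5md. Without R6/2 replicate 4, 3 members rose: Atp5g1, Cox7c and Ndufb8. Of the 22626 probe sets 82 rose and 496 fell with all arrays, 124 rose and 755 fell without wild-type replicate 5, and 198 rose and 623 fell without R6/2 replicate 4.

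An RNA quality measure moved with genotype as well. The 3′ minus 5′ signal of the Actb control probe sets averaged 0.61 ± 0.18 over 7 R6/2 arrays and 0.37 ± 0.14 over 7 wild-type arrays (SD) on the log2 scale. The same measure for Gapdh was 0.22 ± 0.21 in R6/2 and 0.03 ± 0.07 in wild-type arrays. In M.C the Gapdh means were 0.34 in R6/2 and 0.05 in wild-type, and in Mith they were 0.06 and -0.01. The Actb means were 0.58 and 0.32 in M.C and 0.65 and 0.44 in Mith. With this Actb measure in the fit, 26 of 84 members were above 0, the median was -0.05 and 0 members passed the limma test in either direction. In the same fit, 54 of the 22626 probe sets fell and 2 rose.

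**Figure D1:**
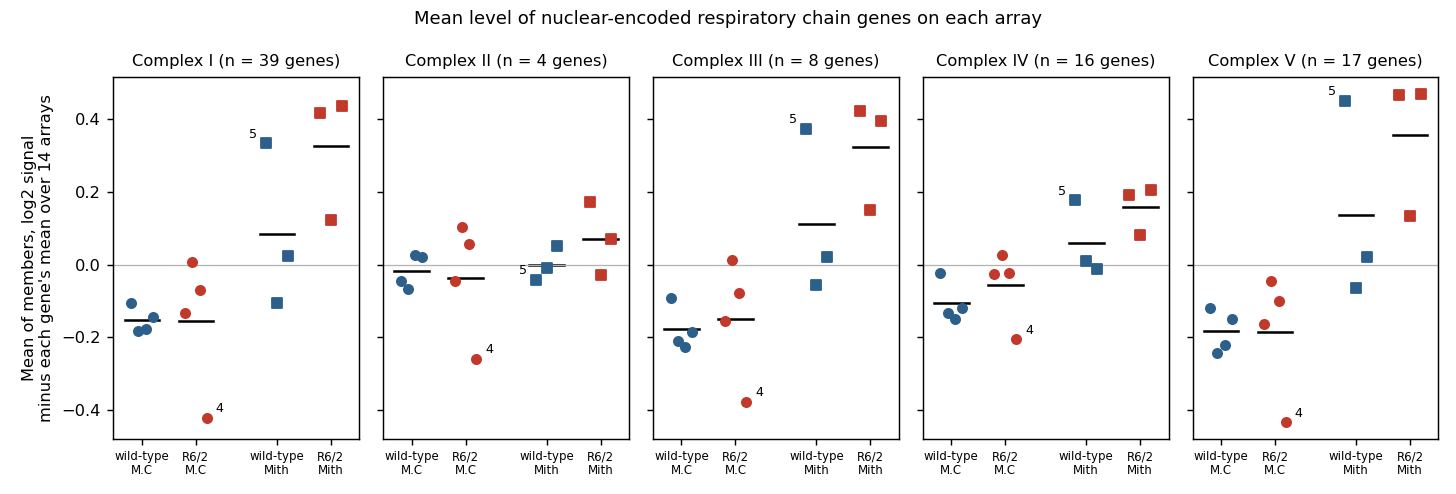
Each point is 1 array and shows the mean over the genes of a complex of the log2 signal minus the gene's own mean over 14 arrays (vertical axis), for wild-type (blue) and R6/2 (red) arrays of M.C (circles) and Mith (squares). Black bars are group means, and R6/2 replicate 4 and wild-type replicate 5 are numbered. In complexes I, III, IV and V replicate 4 lies below the other R6/2 arrays of M.C, and wild-type replicate 5 lies near the high R6/2 arrays of Mith.

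Averaged over all 84 genes, each array's level relative to the gene means was as follows. The M.C wild-type arrays lay at -0.09, -0.18, -0.18 and -0.14, and the M.C R6/2 arrays at -0.12, 0.00, -0.06 and -0.37. The Mith wild-type arrays lay at 0.31, -0.07 and 0.02, and the Mith R6/2 arrays at 0.37, 0.11 and 0.38. In M.C 3 R6/2 arrays were within or above the wild-type range and the remaining one was far below it, whereas in Mith 1 wild-type array lay among the R6/2 arrays. The genotypes overlapped in both cohorts.

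Atp5g1 gave the clearest difference. Its log2 signal on the M.C wild-type arrays was 10.17, 10.12, 10.10 and 10.22, and on the M.C R6/2 arrays 10.29, 10.36, 10.44 and 10.23. On the Mith wild-type arrays it was 10.34, 10.27 and 10.39, and on the Mith R6/2 arrays 10.68, 10.60 and 10.76. Every R6/2 array lay above every wild-type array of its own cohort, although R6/2 replicate 4 cleared the highest wild-type array only narrowly. Atp5g1 rose by 0.25 ± 0.05 (SE) on the log2 scale, to 119% of wild-type (limma adjusted p = 0.0189). The difference was 0.18 within M.C and 0.35 within Mith. The call held in each of the 14 fits that left out 1 array, between 0.23 and 0.27. It was lost with the Actb covariate (0.23, adjusted p = 0.222), without the cohort term (adjusted p = 0.263) and with trended and robust variances (adjusted p = 0.0529).

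Cox7c was a dim probe set, with a mean of 5.51 against an array median of 7.10. Its M.C wild-type arrays read 5.39, 5.45, 5.35 and 5.43, and its M.C R6/2 arrays 5.62, 5.55, 5.59 and 5.86. Its Mith wild-type arrays read 5.31, 5.53 and 5.27, and its Mith R6/2 arrays 5.55, 5.68 and 5.62. Here too each R6/2 array lay above the wild-type arrays of its cohort, by a small margin over wild-type replicate 6, and R6/2 replicate 4 was the highest array instead of the lowest. Cox7c rose by 0.25 ± 0.06 (SE), also to 119% of wild-type (adjusted p = 0.0301), with 0.25 in each cohort. The probe set carries a suffix for possible cross-hybridisation, and the gene's other probe set, with a mean of 3.85, differed by 0.02 ± 0.07 (limma adjusted p = 0.940). The call was lost when R6/2 replicate 1, 6 or 7 or wild-type replicate 1, 3, 4 or 7 was left out, with adjusted p between 0.0567 and 0.0765, with the Actb covariate (0.31, adjusted p = 0.0979), without the cohort term (adjusted p = 0.0844) and with the mean of both probe sets (0.13, adjusted p = 0.245).

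Atp5g1 and Cox7c were also the only members whose R6/2 arrays lay above the wild-type arrays in both cohorts, 2 of 84 against 0.541% of all genes. No member lay below in both, against 0.984% of all genes. Within M.C alone 5 members lay above without overlap (5.41% of all genes) and 0 below (5.73%). Within Mith 10 lay above (7.20% of all genes) and 1, Cox6a2, below (6.25%).

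The promoters of the 2 genes that rose are shown because nuclear respiratory genes are known for sharing binding sites of NRF1, of ETS factors such as GABP, of YY1 and of estrogen-related receptors. Atp5h and Cox6a1, 2 members that did not pass the test, are shown as examples of promoters that hold such motifs. They were picked for these motifs, so their contrast with the 2 genes that rose was set by the choice. Each sequence is the 250 bases before the annotated start in RefSeq (GRCm38.p6), read 5′ to 3′ on the minus strand, and capitals mark motif matches. Atp5g1 lies at chr11:96075632-96075881 and its capitals mark 5 matches to CCAAT on either strand, of which the pair facing each other overlaps in a single block. Cox7c lies at chr13:86046796-86047045 and holds none of the motifs searched. Atp5h lies at chr11:115419920-115420169 and its capitals mark 1 NRF1 motif, 1 ETS motif and 2 CCAAT boxes. Cox6a1 lies at chr5:115348959-115349208 and its capitals mark NRF1 motifs, 1 ETS motif and 1 CCAAT box. One of its NRF1 motifs reads the same on both strands and is counted on each, which gives 3 matches.
Atp5g1: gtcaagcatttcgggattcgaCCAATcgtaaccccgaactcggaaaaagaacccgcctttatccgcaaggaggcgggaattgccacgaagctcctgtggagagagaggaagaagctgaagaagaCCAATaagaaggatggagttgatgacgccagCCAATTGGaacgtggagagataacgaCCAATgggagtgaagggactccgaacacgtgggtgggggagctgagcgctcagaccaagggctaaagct
Cox7c: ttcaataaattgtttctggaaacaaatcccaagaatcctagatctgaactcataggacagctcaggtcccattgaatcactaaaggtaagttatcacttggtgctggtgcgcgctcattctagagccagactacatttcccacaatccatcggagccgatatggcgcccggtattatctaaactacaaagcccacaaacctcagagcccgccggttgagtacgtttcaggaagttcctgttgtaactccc
Atp5h: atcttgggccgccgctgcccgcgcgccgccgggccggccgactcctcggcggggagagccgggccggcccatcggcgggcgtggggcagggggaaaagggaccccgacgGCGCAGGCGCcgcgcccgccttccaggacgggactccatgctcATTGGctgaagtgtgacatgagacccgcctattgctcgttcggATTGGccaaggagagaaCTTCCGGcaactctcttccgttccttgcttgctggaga
Cox6a1: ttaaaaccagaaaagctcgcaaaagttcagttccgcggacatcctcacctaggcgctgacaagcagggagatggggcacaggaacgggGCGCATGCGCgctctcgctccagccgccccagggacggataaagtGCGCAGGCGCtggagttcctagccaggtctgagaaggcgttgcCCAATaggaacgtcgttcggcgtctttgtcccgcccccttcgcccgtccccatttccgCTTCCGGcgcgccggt

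The motifs were searched on both strands of the RefSeq windows, from 250 bases before to 50 after the start, for the 70 of 84 members and 9883 array genes that have a window. The NRF1 motif, which is GCGCA and GCGC with any 1 base between them, occurred in 22.9% of members and 9.36% of array genes. The ETS motif CCGGAAG occurred in 25.7% and 16.4%, and the YY1 motif AAGATGGCG in 8.57% and 2.82%. The motif of estrogen-related receptors, TCAAGGTCA, occurred in 2 members (2.86%) and 0.344% of array genes. TGACGTCA, the cyclic AMP response element, occurred in 3 of the 70 members and 296 of the 9883 array genes, and CCAAT in 40.0% and 42.3%. These are matches of letters, and no test was made of them.

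Complex I takes electrons from NADH. None of its 39 members passed the limma test in the fit over both cohorts, 5 were higher and 0 lower at an unadjusted p below 0.05, and the median difference was 0.10. The core subunits, which carry the flavin and most iron-sulfur clusters, lay nearest to wild-type: 2 of 6 were above 0, with a median of -0.04. Among them Ndufs1, the largest iron-sulfur subunit, differed by -0.04 ± 0.10 and Ndufv1, which binds NADH and the flavin, by -0.04 ± 0.06. Of the accessory subunits 25 of 27 were above 0, with a median of 0.14. Of the assembly factors 4 of 5 were above 0, with a median of 0.05. The difference between these groups of subunits was not tested.

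Ndufb8, an accessory subunit of the membrane arm, came nearest to the threshold. Its M.C wild-type arrays read 10.40, 10.16, 10.33 and 10.38 and its M.C R6/2 arrays 10.54, 10.59, 10.50 and 10.22. Its Mith wild-type arrays read 10.48, 10.48 and 10.51 and its Mith R6/2 arrays 10.86, 10.72 and 10.88. The genotypes were apart in Mith, and in M.C only R6/2 replicate 4 fell among the wild-type arrays. The difference was 0.22 ± 0.06 (adjusted p = 0.0793), and 0.27 (adjusted p = 0.00977) without R6/2 replicate 4. It was 0.20 without R6/2 replicate 7, the lowest value with an array left out. Ndufb8 passed the limma test on the values as deposited, without the common median (0.24, adjusted p = 0.0423), after quantile normalization (0.29, adjusted p = 0.00632) and with array weights (0.23, adjusted p = 0.0192).

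Other accessory subunits had similar or larger differences with a wider spread. Ndufa2, the member of complex I with the largest difference, differed by 0.27 ± 0.12 (adjusted p = 0.281), which was 0.13 for M.C alone and 0.46 for Mith alone. Its wild-type replicate 5 read 9.80, between the R6/2 arrays of Mith at 9.86, 9.51 and 9.84, while wild-type replicates 6 and 7 read 9.06 and 8.96. Ndufb9 was at 0.17 ± 0.07 (adjusted p = 0.250), and Ndufv3, an accessory subunit of the NADH-oxidising part, at 0.19 ± 0.08 (adjusted p = 0.263). Ndufs4, an accessory subunit whose loss causes Leigh-like encephalopathy in mice, differed by 0.15 ± 0.13, and Ndufs8, a core iron-sulfur subunit, by 0.06 ± 0.10. Ndufa10, an accessory subunit, had the lowest value of all members, -0.13 ± 0.08 (adjusted p = 0.436). Ndufa10 read 10.13, 10.31, 10.27 and 10.38 on M.C wild-type arrays and 10.10, 10.32, 10.24 and 9.77 on M.C R6/2 arrays, so that replicate 4 alone lay outside the wild-type range by more than a small margin. In Mith its wild-type arrays read 10.17, 10.16 and 10.33 and its R6/2 arrays 10.24, 10.02 and 10.12, which overlap.

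Complex II, succinate dehydrogenase, showed no called gene among its 4 members with limma, and 0 had an unadjusted p under 0.05. Sdha, the flavoprotein that oxidises succinate, differed by 0.00 ± 0.06. Its M.C wild-type arrays read 10.14, 10.30, 10.34 and 10.38 and its M.C R6/2 arrays 10.23, 10.44, 10.41 and 10.10. Its Mith wild-type arrays read 10.42, 10.37 and 10.52 and its Mith R6/2 arrays 10.56, 10.38 and 10.38. The group means were equal within 0.01 in each cohort, with overlapping arrays. Sdhb, the iron-sulfur subunit, differed by -0.03 ± 0.07. The membrane anchors Sdhc and Sdhd, which bind ubiquinone, differed by 0.08 ± 0.05 and 0.03 ± 0.09.

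Complex III passes electrons from ubiquinol to cytochrome c. None of its 8 members passed with limma and 1, Uqcrb, had an unadjusted p under 0.05. Uqcrb, a small subunit at the ubiquinone site, had the largest difference of all 84 members, 0.35 ± 0.13 (adjusted p = 0.200). Its M.C wild-type arrays read 11.33, 11.38, 11.16 and 11.31 and its M.C R6/2 arrays 11.49, 11.64, 11.63 and 11.93. Its Mith wild-type arrays read 12.65, 11.56 and 11.73 and its Mith R6/2 arrays 12.45, 12.00 and 12.43. The genotypes were apart in M.C, but in Mith wild-type replicate 5 was the highest array of all. Without that array the difference was 0.48 (adjusted p = 0.00706), and without wild-type replicate 6 it was 0.27.

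The other small subunits of complex III had the same sign. All 5 were above 0, with a median of 0.16, including Uqcrh, the hinge protein next to cytochrome c1, at 0.17 ± 0.08 (adjusted p = 0.337) and Uqcr11 at 0.16 ± 0.13. The large subunits lay closer to wild-type: Uqcrfs1, the Rieske iron-sulfur protein, was at 0.05 ± 0.07 and the core protein Uqcrc1 at -0.07 ± 0.08. The difference between small and large subunits was not tested.

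Complex IV, cytochrome c oxidase, is represented by nuclear subunits of which several exist as a general form and a form typical of muscle, testis or lung. The general forms were above 0 for 8 of 9 genes, with a median of 0.06 and 1 rise, Cox7c. The tissue forms were above 0 for 5 of 6, with a median of 0.02 and none called by limma, 0 of them with an unadjusted p under 0.05. Cox6c, a general subunit, read 12.10, 12.01, 11.96 and 12.01 on M.C wild-type arrays and 12.28, 12.31, 12.27 and 11.91 on M.C R6/2 arrays. It read 12.74, 12.09 and 12.15 on Mith wild-type arrays and 12.93, 12.50 and 12.88 on Mith R6/2 arrays. In each cohort the genotypes were apart but for 1 array, R6/2 replicate 4 below the M.C wild-type arrays and wild-type replicate 5 among the Mith R6/2 arrays. Its difference was 0.29 ± 0.10 (adjusted p = 0.164). Cox6c passed the limma test after quantile normalization (0.33, adjusted p = 0.0319) and with array weights (0.30, adjusted p = 0.0382).

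Further subunits of complex IV did not pass the test. Cox4i1, a regulatory subunit that binds ATP, differed by 0.03 ± 0.06 and Cox5a by -0.07 ± 0.07. Cox5b, the zinc-binding subunit, differed by 0.01 ± 0.08. Cox7a2 differed by 0.15 ± 0.14. Among tissue forms, Cox7a1 and Cox8b, known from heart and skeletal muscle, differed by 0.02 ± 0.06 and 0.02 ± 0.06, and Cox6b2, known from testis, by 0.16 ± 0.08 (adjusted p = 0.333). Cox7a1, Cox6b2 and Cox8b were dim, with means of 4.98, 6.02 and 6.83.

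Cox6a2, the heart and muscle form of subunit VIa, had the lowest difference of all members in Mith, where 9 of 84 were below 0. Its Mith wild-type arrays read 7.64, 7.14 and 7.25 and its Mith R6/2 arrays 7.07, 7.03 and 7.14, just without overlap at -0.26. Its M.C wild-type arrays read 7.15, 7.05, 6.93 and 6.99 and its M.C R6/2 arrays 7.04, 6.98, 7.08 and 6.88, which overlap at -0.04. Over both cohorts the difference was -0.13 ± 0.07 (adjusted p = 0.424), and without wild-type replicate 5 it was -0.07. Of the 4 muscle markers, which would mark other tissue, Myh1, Acta1 and Mylpf stayed between 4.60 and 5.82 on every array and Ckm between 7.09 and 7.55. None of the 4 was called by limma in R6/2, and 1, Acta1 (-0.15), was lower at an unadjusted p under 0.05.

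Complex V makes ATP. Apart from Atp5g1, none of its 17 members passed with limma, 2 including Atp5g1 were higher at an unadjusted p under 0.05, and the median was 0.07. Its F1 part, which is the catalytic head with the central stalk, had 3 of 5 subunits above 0 and a median of 0.02. The catalytic subunit Atp5b differed by 0.00 ± 0.06 and its partner Atp5a1 by -0.12 ± 0.07 (adjusted p = 0.471). The medians were 0.13 for the small membrane subunits, 5 of 5 above 0, and 0.10 for the peripheral stalk, 4 of 4 above 0. The difference between these parts was not tested.

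Atp5md, a small membrane subunit associated with ATP synthase dimers, differed by 0.32 ± 0.13 (adjusted p = 0.246). Its M.C wild-type arrays read 9.37, 9.40, 9.23 and 9.32 and its M.C R6/2 arrays 9.51, 9.72, 9.66 and 9.33. Its Mith wild-type arrays read 10.64, 9.64 and 9.66 and its Mith R6/2 arrays 10.49, 10.11 and 10.68. R6/2 replicate 4 in M.C and wild-type replicate 5 in Mith again lay among the other genotype. Without wild-type replicate 5 the difference was 0.43 (adjusted p = 0.0337), and without wild-type replicate 6 it was 0.25. Atp5h, subunit d of the peripheral stalk, differed by 0.17 ± 0.09 (adjusted p = 0.387), and the other 2 genes of the rotor ring, Atp5g2 and Atp5g3, by 0.03 ± 0.09 and 0.06 ± 0.07.

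**Figure D2:**
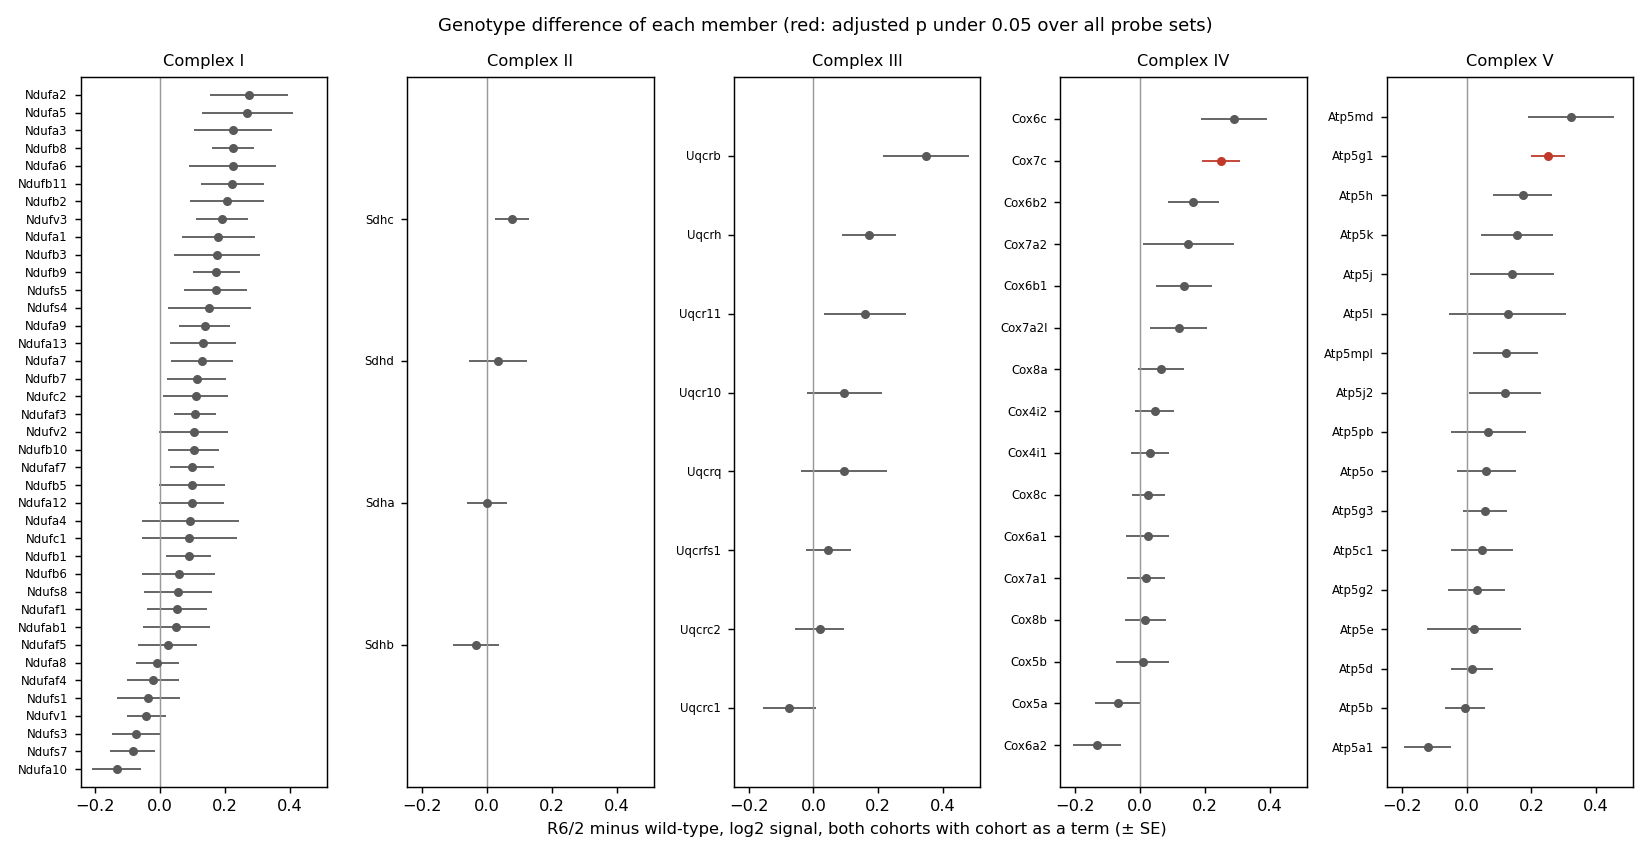
R6/2 minus wild-type difference of each of the 84 genes in log2 signal over both cohorts (horizontal axis, point ± SE), by complex and sorted by size. The 2 genes in red, Cox7c at 0.25 and Atp5g1 at 0.25, passed the test, and 71 of 84 points lie to the right of 0.

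The question within each cohort was whether genotype alone separated its arrays. In M.C 0 of 84 members were called by limma and 4 were higher and 0 lower at an unadjusted p below 0.05. Of all genes 2.10% fell and 0.145% rose in M.C, and 9.15% were lower and 6.99% higher unadjusted. Without R6/2 replicate 4, Cox6c (0.27, adjusted p = 0.0330) and Atp5md (0.30, adjusted p = 0.0409) rose in M.C. In that fit 146 of the 22626 probe sets rose and 816 fell, against 35 and 523 with the array. In Mith 0 members were called, 13 were higher and 0 lower at an unadjusted p below 0.05, and 0% of all genes were called, with 5.16% higher and 3.92% lower unadjusted.

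The genotype difference itself was compared between cohorts by an interaction term. The M.C minus Mith effect was below 0 for 72 of 84 members, with a median of -0.22, and of all 12393 genes 51.2% were above 0, with a median of 0.00. Yet 0 members and 0% of all genes passed with limma, and 5 members had an unadjusted p under 0.05, all with the smaller difference in M.C, against 5.80% of all genes in that direction and 3.93% in the other. Without R6/2 replicate 4 the median was -0.13, and without wild-type replicate 6 it was -0.12. After quantile normalization it was -0.03, and the M.C median was 0.12 with 74 of 84 members above 0.

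**Figure D3:**
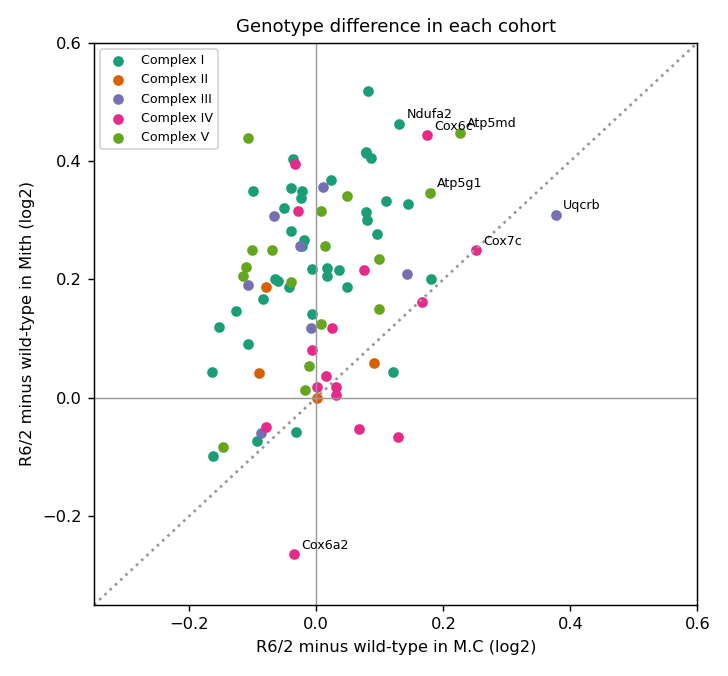
R6/2 minus wild-type difference of each gene in log2 signal, in M.C (horizontal axis) against Mith (vertical axis), coloured by complex, with equality as a dotted line and 7 genes named. Most points lie above the line, with 75 of 84 above 0 in Mith and 41 of 84 above 0 in M.C, while Cox7c lies on the line and Uqcrb below it.

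The difference between the cohorts was much larger than that between the genotypes. With genotype as a term, 57 of 84 members differed between M.C and Mith in limma, where 54 were lower in M.C and 3 higher. Of all genes 31.3% differed, 15.3% lower and 16.0% higher. The median of the members was -0.36, against 0.02 over all genes. M.C arrays lay below all Mith arrays for 13 members (3.91% of all genes) and above them for 1, Sdhc (4.17%). Without R6/2 replicate 4 the counts were 54 and 3 with a median of -0.31, and without wild-type replicate 5 they were 50 and 2 with a median of -0.33. After quantile normalization 35 members were lower, 11 were higher and the median was -0.17. Of the 22626 probe sets 3847 were lower and 3465 higher with all arrays, 3991 and 3717 without R6/2 replicate 4, 3645 and 3252 without wild-type replicate 5, and 3408 and 4003 after quantile normalization. The labels speak of 2 drug studies without tying them to the title prefixes, and what else differed between the cohorts, such as dissection, date or hybridisation, was not given in the sources used here.

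Ndufa4 had the largest difference between cohorts. It was long counted in complex I, as its symbol says, and is now placed in complex IV. Its M.C arrays read 10.85, 10.54, 10.49 and 10.63 in wild-type and 10.63, 10.79, 10.61 and 10.09 in R6/2. Its Mith arrays read 11.95, 11.04 and 10.97 in wild-type and 11.83, 11.36 and 11.81 in R6/2. Every M.C array was below every Mith array, with R6/2 replicate 4 lowest and wild-type replicate 5 highest. Ndufa4 was lower in M.C by -0.91 ± 0.15 on the log2 scale, at 53.0% of Mith (adjusted p = 2.8e-04), while its genotype difference was 0.09 ± 0.15.

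The next largest differences were also those of small subunits. Atp5l, subunit g of ATP synthase, was lower in M.C at -0.82 ± 0.18 (adjusted p = 0.00255), and Atp5md at -0.76 ± 0.13 (adjusted p = 4.7e-04). Cox7a2 was lower at -0.75 ± 0.14 (adjusted p = 8.6e-04) and Atp5e, the small subunit epsilon of the central stalk, at -0.69 ± 0.15 (adjusted p = 0.00186). For Atp5l the M.C arrays ran from 9.38 to 10.16 and the Mith arrays from 10.18 to 11.33, apart by a narrow gap. For Atp5e the M.C arrays ran from 8.34 to 9.07 and the Mith arrays from 9.03 to 9.96, a slight overlap. Their genotype differences were 0.13 ± 0.18 for Atp5l and 0.02 ± 0.14 for Atp5e.

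In M.C 3 members were higher. Ndufaf4, a complex I assembly factor, was higher by 0.33 ± 0.08 (adjusted p = 0.00521), the core protein Uqcrc1 by 0.24 ± 0.08 (adjusted p = 0.0341) and Sdhc by 0.24 ± 0.05 (adjusted p = 0.00241). The other probe set of Ndufaf4 was at -0.17 (adjusted p = 0.293), in the opposite direction. The Uqcrc1 call was lost without R6/2 replicate 2 (0.20), wild-type replicate 3 (0.21), R6/2 replicate 7 (0.21) or wild-type replicate 5 (0.19). The probe set used for Sdhc carries a suffix for possible cross-hybridisation, and with the gene's other probe set the call was lost (0.03, adjusted p = 0.798). For Sdhc the M.C arrays ran from 10.07 to 10.29, and the highest Mith array lay below the lowest of them by a small margin.

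By role, the cohort difference was spread over most groups of subunits. All 5 small membrane subunits of ATP synthase were lower in M.C (median -0.65), as were 4 of 4 subunits of the peripheral stalk (median -0.50) and 5 of 5 small subunits of complex III (median -0.45). Of complex I accessory subunits 21 of 27 were lower (median -0.48), and of general complex IV forms 6 of 9 (median -0.35). Large subunits were among them: 4 of 6 complex I core subunits were lower (median -0.32). Of the core proteins of complex III, Uqcrc2 was lower (-0.65, limma adjusted p = 1.6e-05) and Uqcrc1 higher. Of 6 tissue forms of complex IV 0 were called by limma, with a median of 0.01. At an unadjusted p under 0.05, 1 of them was below and 1 above. In the F1 part of ATP synthase 2 of 5 were lower, Atp5c1 (-0.58) and Atp5e (-0.69), both of the central stalk. Atp5d, also of the central stalk, was not called (-0.05, limma adjusted p = 0.571), and its other probe set was at -0.12 (adjusted p = 0.325). Of the head subunits, Atp5b was at 0.02 ± 0.06 and Atp5a1 at 0.11 ± 0.07. Another probe set of Atp5a1, with a mean of 10.9 and a suffix for possible cross-hybridisation, was lower in M.C (-0.32, limma adjusted p = 0.0059). The differences between these groups were not tested.

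**Figure D4:**
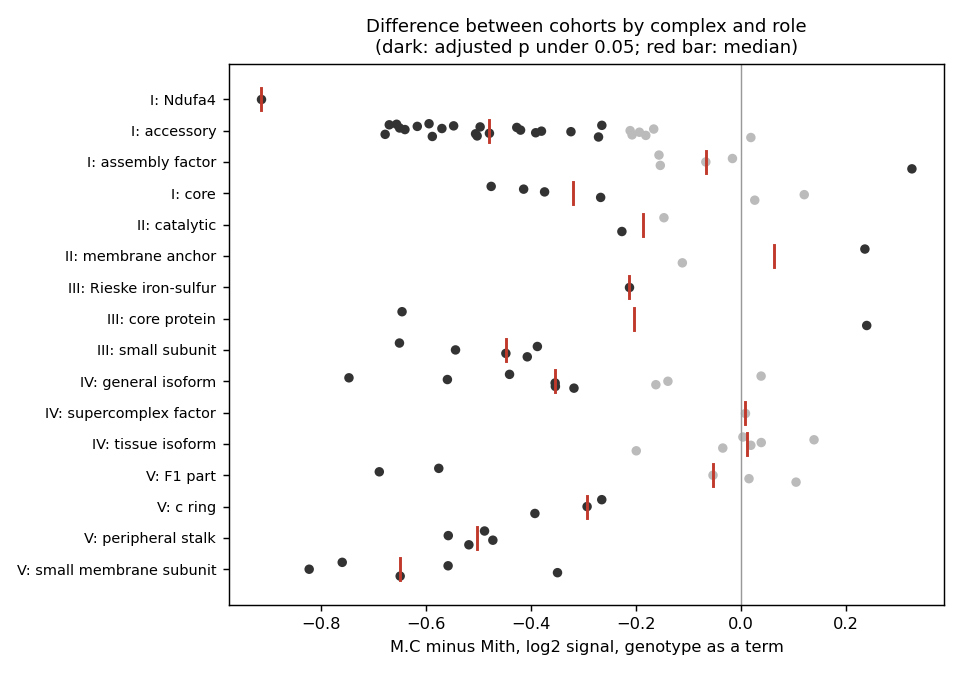
M.C minus Mith difference of each gene in log2 signal with genotype as a term (horizontal axis), by complex and role (vertical axis), dark where the adjusted p was under 0.05 and with group medians in red. Small membrane, peripheral stalk and accessory subunits lie far to the left, and the tissue forms of complex IV lie around 0.

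Some markers of other cells moved with the cohorts beside these genes. All 5 mature oligodendrocyte markers measured fell in M.C relative to Mith (median -0.84), with a mean level relative to the gene means from -0.61 to 0.08 over M.C arrays and from 0.05 to 0.68 over Mith arrays. Of 5 thalamic markers 4 fell in M.C (median -0.99), with levels from -0.47 to -0.20 in M.C and from -0.12 to 1.10 in Mith. Among the thalamic genes Slc17a6 ran from 6.52 to 9.38 over the 14 arrays and Prkcd from 7.76 to 10.05. Of the parvalbumin interneuron list Pvalb fell in M.C by 0.87, Tac1 fell by 0.31 and Kcnc1 rose by 0.39. Of 6 astrocyte markers 1 was called, Gja1 (-0.58), with 3 of 6 above 0 and a median of 0.02. Of 5 vessel markers 2 were called, Cldn5 (0.36) and Pecam1 (0.20), with a median of 0.04. Of 6 projection neuron markers Drd2 was higher (0.47) and Tac1, also on that list, lower, with a median of 0.23. Of 6 microglia markers 1 was called, C1qc (0.42), with a median of 0.03. The part of these cells in the members' difference was not tested. When the Actb quality measure entered the fit, 52 members were lower and 3 higher in M.C, with a median of -0.31. Of the 22626 probe sets 3610 were lower and 3282 higher in that fit.

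Markers also moved with genotype. Of 6 striatal projection neuron markers measured, 5 fell in R6/2 (median -0.71), with a mean level relative to the gene means from -0.55 to -0.12 over R6/2 arrays and from -0.18 to 0.62 over wild-type arrays. Within M.C 5 of the 6 fell (median -0.96). Within Mith 0 were called by limma, 3 were lower and 1 higher unadjusted, and the median was -0.38. Over both cohorts 3 of 5 oligodendrocyte markers fell (median -0.30), from -0.61 to 0.40 in R6/2 and from -0.37 to 0.68 in wild-type arrays. Of 6 astrocyte markers 1 fell, 3 were lower unadjusted and all 6 were below 0 (median -0.23). Within M.C 2 of these 6 fell, and within Mith 0 were called. Of the 3 parvalbumin interneuron markers measured 1 was called by limma, Kcnc1, which fell by 0.39 (adjusted p = 0.0297). Pvalb was at -0.25 (adjusted p = 0.333) and Tac1 at 0.07 (adjusted p = 0.787). Of the 5 thalamic markers 0 were called by limma over both cohorts, 2 were lower unadjusted, and the median was -0.27. In Mith all 5 thalamic markers were below 0 (median -0.66), with 0 called and 3 lower unadjusted, and their levels ran from 0.34 to 1.10 on wild-type arrays and from -0.12 to 0.38 on R6/2 arrays. In M.C their median was 0.07. Their part in the members' differences was not tested.

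Genes around the respiratory chain were compared in the same fit over both cohorts. Of 20 partners outside the rule, such as cytochrome c and assembly factors whose symbols it does not take, 0 were called by limma. At an unadjusted p below 0.05, 3 were higher and 0 lower, and the median was 0.06. Of 15 genes of the tricarboxylic acid cycle and pyruvate dehydrogenase 0 were called, 0 had an unadjusted p under 0.05, and the median was 0.01. Of 13 glycolytic genes 0 were called, 1 was lower unadjusted, and the median was -0.02. Of 8 exchange carriers and porins 0 were called, 1 was lower unadjusted, and the median was -0.05. Within M.C 1 of these 8 fell, Ckmt1, the mitochondrial creatine kinase, by 0.63 on the log2 scale, with 0.01 in Mith.

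Regulators of the respiratory genes were not called either. Of 12 regulators, which include Nrf1, Gabpa, Esrra and Tfam, 0 passed with limma, 2 were lower and 0 higher before adjustment, and the median was 0.00. Ppargc1a, the coactivator of mitochondrial biogenesis, differed by -0.38 ± 0.15 (adjusted p = 0.226), from a mean of 8.14 in wild-type to 7.76 in R6/2. Its difference was -0.55 in M.C and -0.16 in Mith.

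Ribosomal protein genes were looked at as further large gene families. Of 74 mitochondrial ribosomal protein genes 2 rose in R6/2 and none fell, namely Mrpl39 (0.35) and Mrpl57 (0.26), with 61 of 74 above 0 and a median of 0.07. Of 53 cytosolic ones 0 were called with limma, 1 was higher unadjusted, 44 were above 0 and the median was 0.11. Between cohorts 25 of 74 mitochondrial ones were lower in M.C and 4 higher (median -0.11), and 29 of 53 cytosolic ones were lower and 2 higher (median -0.30). Array by array, the cytosolic ones had a mean of -0.29 on R6/2 replicate 4 and 0.33 on wild-type replicate 5, where the 84 members had -0.37 and 0.31. The difference between the sets was not tested.

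A last description concerns genes with several probe sets, which 45 of the 84 members have. The genotype difference varied most between probe sets of Cox7c, from 0.02 to 0.25, followed by Ndufb9, from -0.01 to 0.18 over 3 probe sets. Cox5b had 6 probe sets, whose genotype differences ran from 0.00 to 0.15. Its cohort differences ran from -0.66 to 0.12. The probe set at 0.12 had a mean of 6.58, and the one that stood for the gene, with a mean of 12.4, was at -0.35.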

How the data were processed

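RNA of 14 samples was hybridised to an Affymetrix mouse array. The authors deposited log2 probe set signals, a unit read from the values (2.96 to 14.5), and their summarisation and normalization were not given in the sources used here. Deposited array medians spanned 0.108 on the log2 scale, above a limit of 0.1, so all arrays were shifted to the same median. Tests ran on 22626 probe sets, after 64 controls had been removed.

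Genotype with cohort as a term, genotype within each cohort, their interaction, and cohort with genotype as a term were fitted per probe set with limma 3.58.1 (lmFit and eBayes) in R 4.3.3. Tests were two-sided and p-values were adjusted over the 22626 probe sets by Benjamini-Hochberg, with 0.05 as the threshold of a call. Fits were tested on simulated data. Percentages of all genes refer to 12393 genes, each by its brightest probe set with 1 symbol. Apart from that choice, no test used levels of different probe sets.

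The members, lists and tests were chosen with earlier results of these data known. Genes were named if called, if among the 3 smallest p or at either extreme in a complex, if on a list of standard subunits, if among the 5 largest called differences each way between cohorts, or if among the 5 whose probe sets differ most. From other lists, called genes and Ppargc1a were named. Atp5d, Atp5g2, Atp5g3, Cox6a1 and Uqcrc2 were chosen after their values were seen. Roles are textbook assignments. For Drd1 and Adora2a no single-symbol probe set was found. Promoters come from a RefSeq table, and regulatory motifs were searched as exact letters. Alternatives covered the deposited values, quantile normalization, brighter probe sets (the upper 60%), trended and robust variances, no cohort term, an Actb covariate, array weights, the mean of probe sets, current symbols, a threshold of 0.01, each array left out and, added after seeing the data, passing over suffixed probe sets and, for the cohort comparison, the Actb covariate and the threshold of 0.01.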

Additional observations from a re-analysis of the deposited data

Results flagged for a closer look

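Within the 4 R6/2 arrays of M.C, R6/2 replicate 4 lay far below the other 3 for 4 of the genes looked at. The rule compared its gap to the nearest array with the range of the group. Atp5e read 8.341 on that array and 8.818 to 8.837 on the others. Atp5l read 9.381 against 10.063 to 10.157. Cox6c read 11.915 against 12.272 to 12.315. Cox7a2 read 10.902 against 11.497 to 11.544. In all, 84 groups of arrays were looked at and 4 stood out, and chance flags about 1 in 20 groups. These groups did not cover every member, so the 4 are not a count over the 84 genes. Cox6a1, not looked at, read 11.825 on R6/2 replicate 4 and 12.213 to 12.234 on the other M.C R6/2 arrays. That replicate was the lowest of 14 arrays for 59 of the 84 genes. The groups share arrays, so they are not independent. The Actb 3′ minus 5′ signal of R6/2 replicate 4 was 0.28, the lowest of the 7 R6/2 arrays, and its part in these values was not tested.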

How the results depend on the processing

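Of 460 values of single genes under 11 alternatives other than leaving out arrays, 419 kept their direction and side of the threshold, 25 changed sign, 11 lost a call and 5 gained one. The count of members that rose over both cohorts was 2. It was 3 on the values as deposited, which added Ndufb8. It was 5 after quantile normalization, which added Cox6c, Ndufb8 and Ndufb11, and 4 with array weights, which added Cox6c and Ndufb8. It was 1 with brighter probe sets, 1 with trended and robust variances, 1 with the mean of probe sets and 1 with suffixed probe sets passed over, the last chosen after seeing the data. It was 0 without the cohort term, 0 with the Actb covariate and 0 at a threshold of 0.01. Of the 22626 probe sets 82 rose and 496 fell in the main fit, and 131 rose and 436 fell after quantile normalization. With the Actb covariate 2 rose and 54 fell. Such counts for the other settings named so far are not given here. Leaving out 1 array gave 1 to 4, with 1 without R6/2 replicates 1, 6 or 7 or wild-type replicates 1, 3, 4 or 7 and 4 without wild-type replicate 5. In M.C quantile normalization gave 2 rises, Atp5g1 and Atp5md, and leaving out 1 array gave 0 to 2. Of all probe sets 49 rose and 322 fell in M.C after quantile normalization, against 35 and 523 in the main fit. Quantile normalization moved the interaction median to -0.0345. It moved the cohort comparison to 35 lower and 11 higher with a median of -0.17. The cause was not tested.

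Apart from the Actb covariate, signs turned where differences were near 0. That covariate also turned larger ones, such as Cox6b2 and Uqcr11 (each 0.16 in the main fit), Ndufs4 and Cox7a2 (each 0.15) and Atp5l (0.13). With it 26 of 84 members were above 0, against 71 in the main fit. Quantile normalization gave 0.0354 for Atp5b, 0.0016 for Ndufaf4, 0.0028 for Ndufs1, 0.0240 for Ndufv1 and 0.0360 for Sdhb. Atp5b was at 0.0134 as deposited. Array weights gave 0.0168 for Atp5b, 0.0086 for Ndufaf4 and -0.0074 for Cox8b. The mean of probe sets gave 0.0128 for Ndufaf4, and passing over suffixed ones -0.0017 for Cox5b. The Actb covariate gave 0.0072 for Atp5b, -0.23 for Atp5e, -0.20 for Atp5l, -0.0280 for Cox4i1, -0.20 for Cox5b, -0.0015 for Cox6b2, -0.12 for Cox7a2, -0.23 for Ndufa4, -0.0863 for Ndufs4, -0.16 for Ndufs8, -0.0354 for Sdha, -0.0589 for Sdhd, -0.12 for Uqcr11 and -0.0729 for Uqcrfs1. With 1 array left out, values ran from -0.0341 to 0.0233 for Atp5b, -0.0559 to 0.118 for Atp5e, -0.0369 to 0.0614 for Cox5b, -0.0099 to 0.0477 for Cox7a1, -0.0216 to 0.0555 for Cox8b, -0.0804 to 0.0160 for Ndufaf4, -0.0867 to 0.0356 for Ndufs1, -0.0145 to 0.125 for Ndufs8, -0.0259 to 0.0348 for Sdha, -0.0689 to 0.0175 for Sdhb and -0.0182 to 0.114 for Sdhd. R6/2 replicate 4 was the lowest array in each complex by the mean and by the median over members.

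No paired analysis was possible because the numbers in the sample titles are not shared between R6/2 and wild-type arrays. The dim signal of Cox7c, Cox7a1, Cox6b2 and Cox8b limits what their values can show.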
